A study of Neurospora crassa with 12 samples.

Results

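The Δclr-5 strain of Neurospora crassa was compared on 2 amino acids as nitrogen source: 2 cultures on Avicel with histidine and 2 on Avicel with leucine, which are 4 of the 12 libraries of the series. The mutant is a knockout strain, obtained from a stock centre, that lacks clr-5, a zinc cluster transcription factor gene, and the leucine cultures carry the same deletion as the histidine cultures. All 4 cultures were grown as mycelium in glucose medium and shifted to Vogel's salts without other nitrogen, with 2% Avicel, which is microcrystalline cellulose, and 50 mM of either amino acid. The sample labels give 8 h of induction, while the study's methods give a shorter time. The other 8 libraries are the wild-type (WT) strain on the same 2 media, 2 cultures each, and both strains on Avicel with the salts' own nitrogen, and they enter here as levels beside those of the mutant on histidine and leucine and, for WT, in the test of whether the strains differ. Each group is a pair of cultures of 1 strain. P-values thus measure the spread between cultures, estimated over all 12 libraries, and not between independent mutants.

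Neurospora, like other filamentous fungi, ranks its nitrogen sources. Ammonium and glutamine are preferred, and genes for the use of poorer sources are held down by nitrogen metabolite repression until the GATA factor nit-2 acts. Leucine is broken down through a branched-chain aminotransferase and acyl-CoA intermediates to acetyl-CoA and acetoacetate, which can enter the glyoxylate cycle. Histidine is among the poorer nitrogen sources for this fungus. When amino acids run short, cross-pathway control through the activator cpc-1 raises biosynthetic genes of many amino acids at once, and cellulase genes, in turn, need the regulators clr-1 and clr-2 and a cellulose-derived inducer.

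Total counts were 19549810 and 17539481 in the histidine libraries and 20381308 and 18517874 in the leucine libraries. The transcript of clr-5 (NCU05383) was at 1.63 and 1.31 CPM (counts scaled by library sizes adjusted with TMM, and not by gene length) on histidine and 2.96 and 2.54 on leucine in the mutant, against 47.5 and 39.9 in WT on histidine and 23.5 and 20.2 in WT on leucine, so that all 4 mutant libraries were far below WT. The residual reads were fewer on histidine (log2 fold change -0.90, standard error 0.23, adjusted p = 0.00592), a call that was lost without histidine culture 2 (-0.75). As clr-5 overlaps a neighbouring locus, these reads may belong to either gene. Over the genes tested, the root-mean-square difference in log2 CPM between the libraries of a medium was 0.318 on histidine and 0.378 on leucine. Between these media it was 1.38 to 1.47. The mutant's 2 Avicel cultures lay further apart, at 0.707. The hydrophobin gene eas took 8.30% and 6.99% of all counts on histidine, the largest share of any gene there, and the pheromone precursor gene mfa-1 took 2.80% and 2.98% on leucine. No read of matA-1, a mating-type gene, was counted in the 4 mutant libraries, and WT held it at 47.0 to 123 CPM on the same media, so that the strains differ in mating type as well as in clr-5, and the 2 cannot be told apart in any difference between them.

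In Δclr-5, 2078 genes were higher and 2588 were lower on histidine than on leucine, out of 8805 genes tested with edgeR's quasi-likelihood F test at an adjusted p under 0.05 and a log2 fold change of at least 0.5 in size. That is 53.0% of the genes tested, with 23.6% called higher and 29.4% called lower, and it is the background for each count below. The large changes were mostly decreases. At a log2 fold change of at least 1, 1105 genes were higher and 1785 lower, and at 4 or more 65 were higher and 174 lower. The median over all genes tested was -0.04. The groups of genes named below were described by their counts and medians, with no test of a group, and in whole mycelium fewer cells of a kind cannot be told apart from less RNA per cell.

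**Figure D1:**
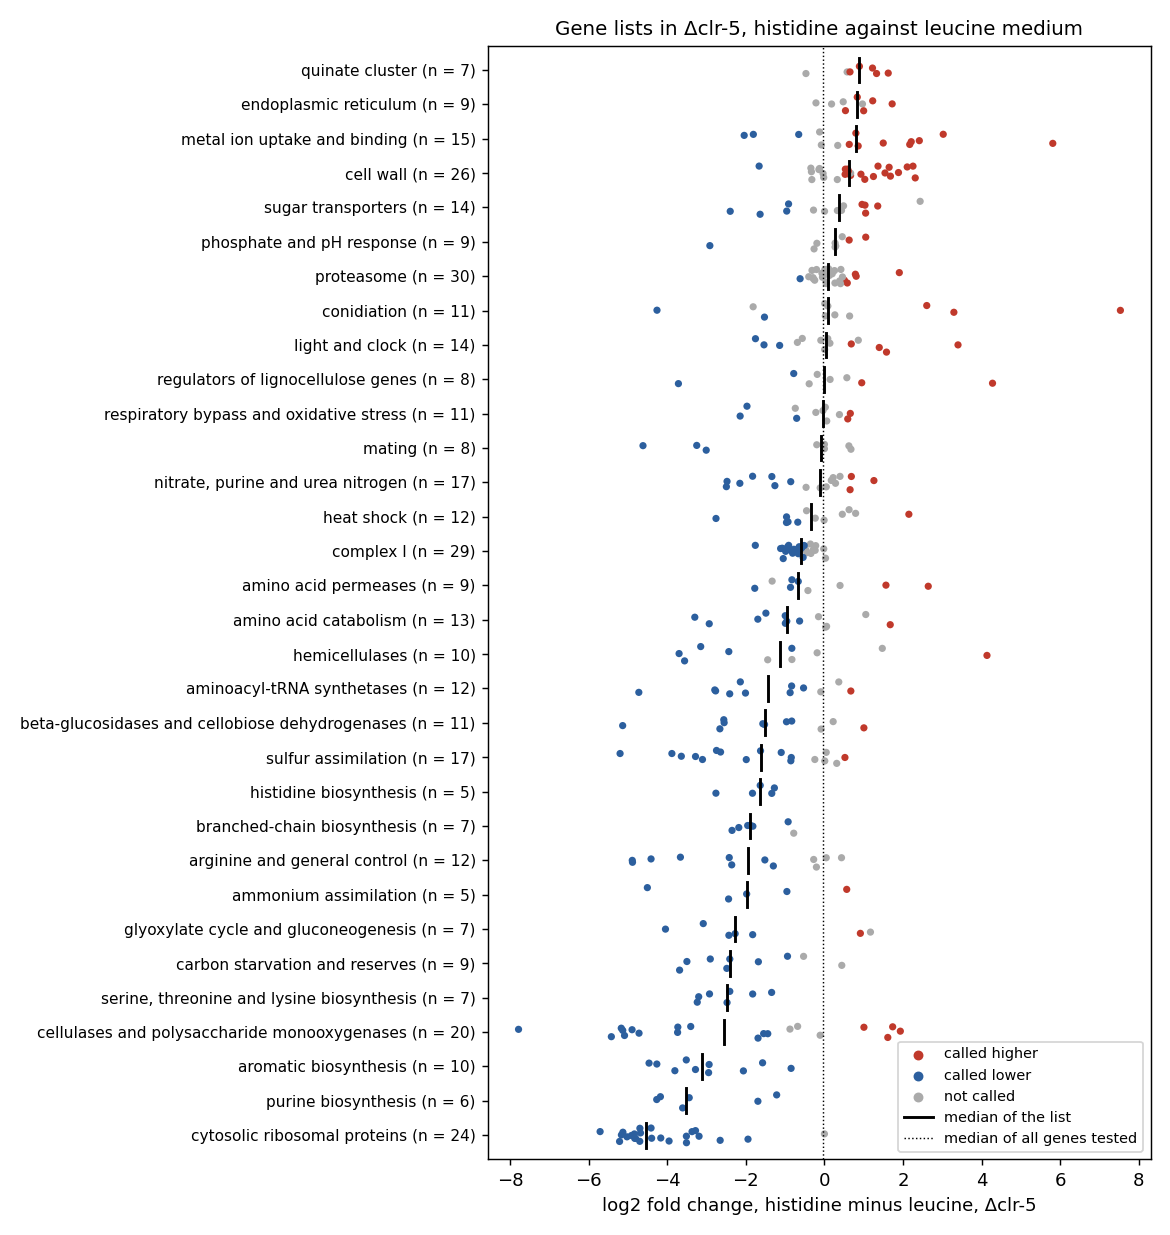
Log2 fold change between histidine and leucine medium in Δclr-5 for the members of each gene list with at least 5 genes tested (1 point per gene, red called higher, blue called lower, grey not called), with a black bar at each list's median and a dotted line at the median of all 8805 genes. Ribosomal proteins, with a median of -4.54, lie furthest to the left, and the medians of the quinate, endoplasmic reticulum, metal ion and cell wall lists lie between 0.64 and 0.89.

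Genes of the translation machinery were much lower on histidine. Of 24 genes listed as cytosolic ribosomal proteins, 23 were called lower and 0 higher, with a median log2 fold change of -4.54, while the uncalled gene, NCU01474, was at 0.00. The 24 are a part of that family, since members without a symbol came only from loci with annotation text. The 60S protein L15 gene NCU01776 was at 7.37 and 6.49 CPM on histidine and 394 and 331 on leucine, a 52.2-fold difference (log2 fold change -5.71, standard error 0.37, adjusted p = 4.67e-07). The 40S protein S7 gene crp-15 was at 5.19 and 6.88 CPM on histidine and 235 and 212 on leucine (-5.21, standard error 0.28), and the 40S protein S4 gene NCU02181 at 15.1 and 14.2 against 543 and 483 (-5.13, standard error 0.27). The 2 media did not overlap for NCU01776, crp-15 or NCU02181, nor did they for 85.0% of all genes tested. As a share of all counts, the 24 genes held 0.0895% and 0.0885% on histidine, 0.958% and 0.913% on leucine, and 2.53% and 2.70% in the mutant on Avicel without amino acid, so that both amino acid media were below Avicel and histidine was the lowest. In WT 23 of these genes were called lower, at a median of -4.71. The difference between the strains was called for 0 of the 24, beside 11.4% of all genes tested. Of 12 aminoacyl-tRNA synthetase genes listed, which charge tRNAs with their amino acids, 9 were lower and 1 higher (median -1.44). This list, too, is a part of its family. Glycyl-tRNA synthetase NCU00405 was at 62.04 and 68.96 CPM on histidine and 484 and 421 on leucine (-2.79, standard error 0.26), the valyl-tRNA synthetase gene cyt-20 at 56.3 and 64.9 against 434 and 391 (-2.77, standard error 0.23), and the leucyl-tRNA synthetase gene leu-6 was at 73.7 and 74.4 against 341 and 312 (-2.14, standard error 0.33). The gene of translation elongation factor 1 alpha, tef-1, one of the most abundant transcripts on leucine, was at 4499 and 5612 CPM on histidine and 17550 and 16770 on leucine (-1.76, standard error 0.24).

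Biosynthesis genes of histidine were lower on histidine, and so were those of the other amino acids examined. All 5 genes listed for histidine biosynthesis, a part of the pathway, were called lower, with a median of -1.63. ATP phosphoribosyltransferase, the first enzyme of the pathway, is encoded by his-2, which was at 20.6 and 23.02 CPM on histidine and 160 and 135 on leucine (-2.76, standard error 0.23, adjusted p = 2.64e-06). For the trifunctional gene his-3 the values were 186 and 197 CPM against 502 and 468 (-1.34, standard error 0.17), and his-7 and his-6 were at -1.27 and -1.63. Larger decreases were measured in other pathways. All 10 aromatic genes listed were lower, at a median of -3.11, and all 7 listed for serine, threonine and lysine synthesis at -2.48. Of 12 genes of arginine synthesis and general control 8 were lower and 0 higher, at a median of -1.94. Tryptophan synthase trp-3 was at 32.5 and 39.9 CPM on histidine and 888 and 705 on leucine, 22.02-fold lower (-4.46, standard error 0.44), and the DAHP synthase gene aro-8, of the first step of the aromatic pathway, was at 16.6 and 19.2 against 374 and 312 (-4.26, standard error 0.36). These levels did not overlap, which held for 85.0% of all genes tested. Argininosuccinate synthetase arg-1 was at 25.9 and 32.7 CPM against 906 and 821 (-4.88, standard error 0.21, adjusted p = 8.04e-08), and argininosuccinate lyase arg-10 was at 8.83 and 15.1 against 390 and 316 (-4.89, standard error 0.40). The first enzyme of lysine synthesis, homocitrate synthase lys-5, was at 107 and 118 CPM on histidine and 1176 and 940 on leucine (-3.23, standard error 0.38), and aspartate-semialdehyde dehydrogenase hom-1 was at 51.2 and 53.0 against 326 and 254 (-2.48, standard error 0.25).

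The transcript of cpc-1 itself did not follow these genes. It was at 2789 and 3271 CPM on histidine and 3138 and 2732 on leucine, values that overlapped (log2 fold change 0.05, standard error 0.20, adjusted p = 0.861).

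The leucine pathway was also lower on histidine than on leucine, although leucine was the amino acid supplied in the other medium. Of 7 branched-chain biosynthesis genes 6 were called lower, at a median of -1.88. The 2-isopropylmalate synthase gene leu-4, the first step of the branch to leucine, was at 73.8 and 91.2 CPM on histidine, 322 and 286 on leucine and 103 and 74.7 on Avicel alone (-1.88, standard error 0.20, adjusted p = 1.63e-05), so that the leucine cultures stood above both other media. The 3-isopropylmalate dehydrogenase gene leu-1 was at 26.4 and 29.3 CPM against 147 and 137 (-2.35, standard error 0.31). For the ketol-acid reductoisomerase gene ilv-2, shared by the branched-chain amino acids, the values were 63.5 and 47.4 CPM in the mutant on histidine and 269 and 233 on leucine (-2.18), and those of WT were 26.04 and 19.7 against 676 and 1009 (-5.20). That difference between strains was called (3.02, standard error 0.61), and the call was lost without histidine culture 1 or leucine culture 2 of the mutant or culture 2 of either WT medium (2.71 at the lowest).

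Sulfur and purine genes moved the same way. Of 17 sulfur assimilation genes 12 were lower and 1 was higher (median -1.63). The sulfate permease gene cys-14 was at 3.47 and 4.17 CPM on histidine, 131 and 149 on leucine and 83.6 and 26.6 on Avicel (-5.20, standard error 0.51), and the methionine synthase gene met-8 was at 79.5 and 90.5 against 1360 and 1143 (-3.88, standard error 0.37). The single gene called higher, scon-3, of the sulfur control system, was at 476 and 444 CPM against 314 and 327 (0.52, adjusted p = 0.0469), a call that was lost without any 1 of the 4 libraries (0.47 to 0.57). All 6 purine biosynthesis genes listed were lower, at a median of -3.52. Adenylosuccinate lyase ad-4 was at 19.5 and 22.4 CPM on histidine and 274 and 236 on leucine (-3.61, standard error 0.22), and adenylosuccinate synthetase ad-8 was at 44.2 and 53.0 against 548 and 505 (-3.44, standard error 0.16). The largest decrease of the list was that of ad-5, at 8.36 and 9.06 CPM against 182 and 153 (-4.27, standard error 0.34).

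Ammonium assimilation was lower on histidine and its catabolic counterpart was not. The NADP-dependent glutamate dehydrogenase gene am, which fixes ammonium into glutamate, was at 46.6 and 57.7 CPM on histidine and 1113 and 1253 on leucine, 22.7-fold lower (-4.50, standard error 0.59, adjusted p = 0.000111). The glutamine synthetase genes gln-1 and gln-2 fell by 1.98 and 2.44 on the log2 scale, the latter from 5399 and 5982 CPM on leucine to 992 and 1109 on histidine. The NAD-specific glutamate dehydrogenase gdh-1, which releases ammonium, was at 3367 and 3733 CPM on histidine and 2393 and 2398 on leucine (0.57, adjusted p = 0.045), and this call was lost without any 1 of the 4 libraries (0.49 to 0.64). Of 17 genes of nitrate, purine and urea use, 7 were lower and 3 higher, at a median of -0.11, and the number higher was 1 without leucine culture 2. The urea transporter NCU01977 was at 112 and 121 CPM against 598 and 718 (-2.49, standard error 0.19), and the nitrate reductase gene nit-3 was at 4.84 and 3.73 against 8.64 and 13.1 (-1.34, standard error 0.28). Among their regulators, nit-2 was at 136 and 142 CPM on histidine and 134 and 136 on leucine (0.05, standard error 0.22, adjusted p = 0.87), while its negative regulator nmr was at 115 and 96.5 against 46.3 and 41.8 (1.26, standard error 0.18, adjusted p = 0.000133).

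**Figure D2:**
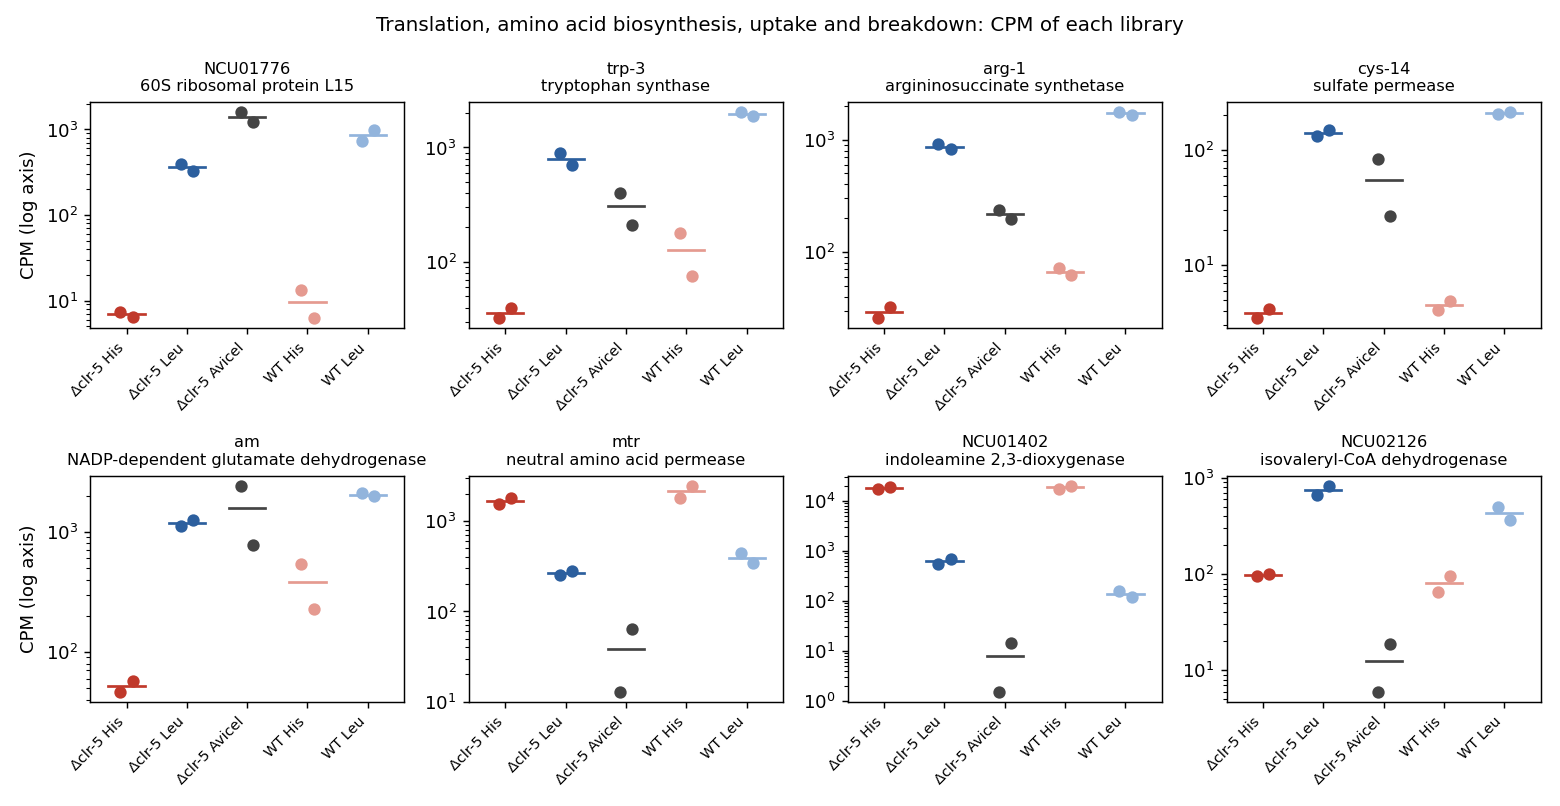
CPM of each library, on a log axis, for 8 genes of translation, biosynthesis, uptake and breakdown in Δclr-5 on histidine, leucine and Avicel and in WT on histidine and leucine (points, 2 cultures a group, with a line at their mean). The biosynthesis genes trp-3 and arg-1 are lowest on histidine in both strains, at 25.9 to 39.9 CPM in the mutant, while mtr and NCU01402 are highest on histidine.

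Genes for the uptake and breakdown of amino acids did not move as one group. Of 9 permease genes 2 were higher and 4 lower, and the number lower was 2 without either histidine culture or leucine culture 1. Both that rose encode broad permeases. The neutral amino acid permease gene mtr was at 1545 and 1796 CPM on histidine, 256 and 280 on leucine and 12.9 and 64.3 on Avicel, and was 6.24-fold higher on histidine than on leucine (2.64, standard error 0.56, adjusted p = 0.00275). The general permease gene pmg was at 356 and 349 CPM against 122 and 117 (1.56, standard error 0.20). Decreases of 2 permease genes in the mutant were not matched in WT: NCU00711, annotated as a multidrug resistance protein and counted by the study among permeases, was at 7.42 and 8.77 CPM on histidine and 27.6 and 27.7 on leucine in the mutant (-1.77, standard error 0.15) and at 62.2 and 57.8 against 51.9 and 44.2 in WT (0.32), and the proline-specific permease NCU00721 was at 469 and 499 CPM against 905 and 856 in the mutant (-0.86) and at 867 and 1321 against 547 and 442 in WT (1.15). Their differences between strains, -2.09 (standard error 0.21) and -2.01 (standard error 0.36), were both called. The mutant's own call for NCU00721 was lost without either histidine culture or leucine culture 1 (-0.91 to -0.82).

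In amino acid catabolism, 8 of 13 genes were lower and 1 was higher, at a median of -0.96. These 13 came from loci with low numbers and from genes the study names. They cover amino acid breakdown only in part, and several belong to leucine breakdown. The leucine breakdown enzymes were among the largest decreases. A methylcrotonoyl-CoA carboxylase subunit, NCU02127, was at 147 and 142 CPM on histidine and 1372 and 1473 on leucine (-3.30, standard error 0.68), and isovaleryl-CoA dehydrogenase NCU02126 was at 94.9 and 101 against 660 and 830 (-2.93, standard error 0.43). On Avicel alone both were lower still, at 3.37 and 25.8 CPM and at 5.998 and 18.9 CPM, so that histidine stood between leucine and Avicel. The branched-chain aminotransferase NCU00792 was at 23.4 and 17.9 CPM on histidine and 70.4 and 63.4 on leucine (-1.69, standard error 0.29), but at 92.7 and 50.2 on Avicel. The gene that rose was ornithine aminotransferase, ota, at 269 and 269 CPM against 82.5 and 86.1 (1.67, standard error 0.17, adjusted p = 1.35e-05). Outside that list, the indoleamine 2,3-dioxygenase gene NCU01402, which encodes an enzyme of tryptophan breakdown, was at 17360 and 18510 CPM on histidine, 547 and 682 on leucine and 1.53 and 14.4 on Avicel (4.87, standard error 0.75, adjusted p = 0.000355). It was one of the most abundant transcripts of the histidine libraries in both strains, with 17190 and 19950 CPM in WT.

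Cellulase genes were far lower on histidine, although Avicel was present in both media. Of 20 cellulase and polysaccharide monooxygenase genes tested, out of 21 in the list, 13 were lower and 4 higher, at a median of -2.55, and the number higher was 2 without histidine culture 1 and 1 without leucine culture 2. The 4 genes called higher had low levels, at 2.33 to 9.26 CPM on histidine and 0.342 to 2.72 on leucine. The list was drawn from gh symbols and cbh-1, and it holds fewer monooxygenase genes than the study counts in the genome. Together the 21 genes held 0.0534% and 0.0994% of counts on histidine, 2.09% and 1.24% on leucine and 16.3% and 11.5% on Avicel. The cellobiohydrolase gene cbh-1, the most abundant transcript of the mutant on Avicel, was at 143 and 357 CPM on histidine, 10970 and 6005 on leucine and 70450 and 44210 on Avicel (-5.08, standard error 0.71, adjusted p = 0.000123). A second cellobiohydrolase gene, gh6-2, was at 31.6 and 56.7 CPM against 2516 and 1262 (-5.42, standard error 0.83). The polysaccharide monooxygenase family gene gh61-4 was at 1.54 and 4.36 CPM on histidine and 763 and 528 on leucine, the largest decrease of the list at 220-fold (-7.78, standard error 0.79). In WT the decreases were smaller: cbh-1 was at 17660 and 4971 CPM against 38390 and 41320 (-1.82), and the median of the list was -0.92.

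The difference between strains was called lower for 6 of these genes, against 6.54% of all genes tested, and higher for 0. For gh61-1 it was -3.89 (standard error 0.66) and for gh61-5 -4.11 (standard error 0.80, lost without either WT leucine culture). For cbh-1 and gh61-4, at -3.27 and -3.29, the difference was called only where histidine culture 2 of the mutant or of WT was left out or where no library was, and without WT histidine culture 1, the higher of the 2, it was -2.08 and -2.04. The cultures of WT on histidine thus differed from each other for these genes, and those of the mutant on histidine did so too.

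The same direction was seen in 5 of 10 hemicellulase genes, with 1 higher (median -1.14), and in 8 of 11 β-glucosidase and cellobiose dehydrogenase genes, with 1 higher (median -1.52), a count that was 5 without histidine culture 1. The xylanase genes gh10-1 and gh11-2 were at 19.4 and 34.7 CPM against 461 and 241 (-3.70) and at 121 and 210 against 2346 and 1541 (-3.56). Cellobiose dehydrogenase cdh-1 was at 8.36 and 9.84 CPM on histidine, 415 and 224 on leucine and 10900 and 3749 on Avicel (-5.13, standard error 0.97), while the gene gh3-3, of the family that holds the β-glucosidases, was higher on histidine, at 974 and 1108 against 557 and 481 (1.00, standard error 0.22).

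Of the 2 main activators of these genes, the transcript of clr-2 was lower on histidine and that of clr-1 showed no call. Values for clr-2 were 8.88 and 12.4 CPM on histidine, 175 and 105 on leucine and 544 and 225 on Avicel, 13.1-fold lower on histidine than on leucine (-3.71, standard error 0.54, adjusted p = 0.000272). Values for clr-1 were 116 and 139 CPM against 122 and 108 (0.14, standard error 0.27, adjusted p = 0.674). The xylanase regulator gene xlr-1 was at 312 and 347 CPM against 248 and 196 (0.57, adjusted p = 0.0526), and the carbon catabolite repressor gene cre-1 at 123 and 110 against 225 and 175 (-0.78, adjusted p = 0.0481), a call that was lost without any 1 of the 4 libraries (-0.95 to -0.59). The largest rise in the list of 8 regulators was that of rca-1, the counterpart of an Aspergillus regulator of conidiation, at 415 and 440 CPM against 15.2 and 29.0 (4.28, standard error 0.32). Transporters of cellodextrins differed from each other. The gene cdt-1 was at 826 and 1051 CPM on histidine and 3322 and 2514 on leucine (-1.64, standard error 0.28), and cdt-2 was at 4998 and 6214 against 5839 and 5348 (0.00, standard error 0.24, adjusted p = 0.993). Over the 14 sugar transporter genes 4 were higher and 4 lower.

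The fold of most endoplasmic reticulum genes differed between the strains. Of 9 genes of the endoplasmic reticulum, which folds and exports the secreted enzymes, 5 were higher and 0 lower on histidine in the mutant (median 0.84), and 0 were higher and 8 lower in WT (median -1.35). The difference between strains was called higher for 8 of the 9, at a median of 1.99, against 4.88% of all genes tested. The chaperone gene grp78 (NCU03982) was at 1393 and 953 CPM on histidine and 609 and 590 on leucine in the mutant (0.97, standard error 0.39, adjusted p = 0.0511) and at 558 and 277 against 1827 and 2121 in WT (-2.24). Its difference was 3.21 (standard error 0.55), the largest of the list. The disulfide isomerase NCU00813 was at 203 and 166 CPM against 60.8 and 51.1 in the mutant (1.72, standard error 0.28). NCU01856, annotated as the transcriptional activator hac1, which drives the unfolded protein response in yeast, was at 231 and 197 CPM on histidine and 121 and 101 on leucine in the mutant (0.95, adjusted p = 0.00816) and at 188 and 142 against 332 and 384 in WT (-1.11), with a called difference of 2.06 (standard error 0.36). On Avicel the level of grp78 in the mutant was 4389 and 2094 CPM, above both amino acid media.

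**Figure D3:**
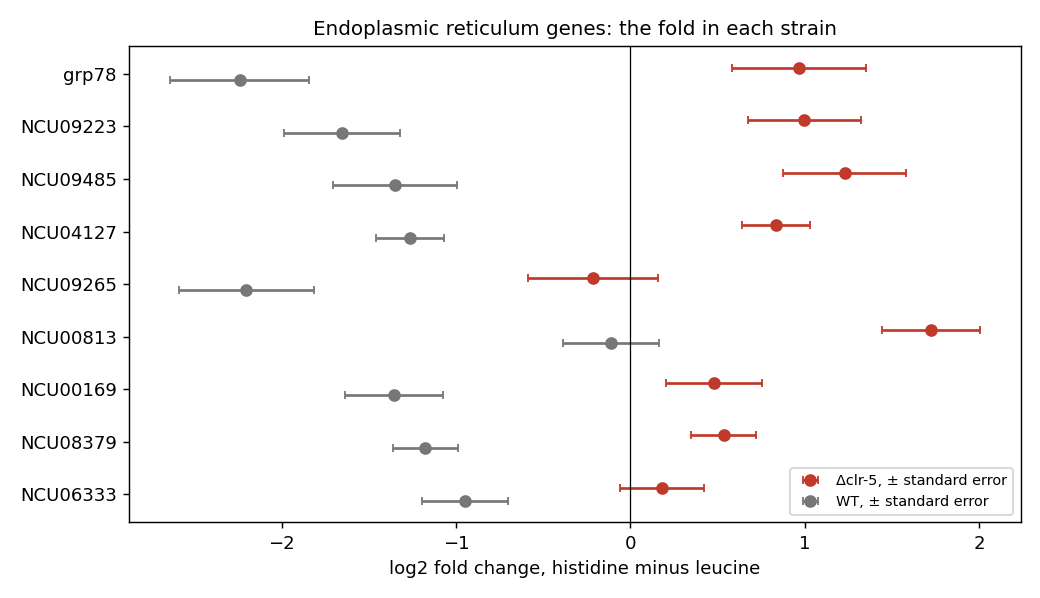
Log2 fold change between histidine and leucine medium for the 9 endoplasmic reticulum genes in Δclr-5 (red) and WT (grey), with bars of 1 standard error from the edgeR fit of all 12 libraries (2 cultures a group). The points of the strains lie apart for every gene, with differences from 1.13 to 3.21, and those of the mutant lie right of 0 for all but NCU09265.

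The count of 5 in the mutant depended on single cultures: it was 2 without histidine culture 1 or without either leucine culture, where NCU09223, NCU09485 and NCU08379 (1.00, 1.23 and 0.54 with all libraries) were not called. In the same way the call for NCU01856 was lost without histidine culture 1 or leucine culture 2 (0.82 at the lowest). The difference between strains stayed called for 5 to 8 of the 8 genes whichever of the 8 libraries was left out.

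Carbon metabolism was lower on histidine at most points. Of 7 genes of the glyoxylate cycle and gluconeogenesis 5 were lower and 1 higher (median -2.27). Malate synthase acu-9 was at 124 and 106 CPM on histidine, 2144 and 1645 on leucine and 9.55 and 20.2 on Avicel (-4.04, standard error 0.45), and isocitrate lyase acu-3 was at 141 and 116 against 768 and 616, with 25.2 and 84.8 on Avicel (-2.43, standard error 0.46). Both were thus highest on leucine, with histidine above Avicel. Acetyl-CoA synthetase acu-5 fell by 3.08 and fructose bisphosphatase fbp-1 by 2.27 on the log2 scale. Their activator gene acu-15, of acetate use, was at 1639 and 1661 CPM against 973 and 778 (0.91, standard error 0.20, adjusted p = 0.00244). The phosphoenolpyruvate carboxykinase gene acu-6 was the exception among the enzymes, at 1194 and 1098 CPM against 663 and 354 (1.17, standard error 0.60, adjusted p = 0.119, not called). Of 9 genes of reserves and carbon starvation 7 were lower and 0 higher (median -2.41): glycogen synthase gsy-1 was at 67.2 and 76.5 CPM against 585 and 490 (-2.90, standard error 0.23), trehalose synthase ccg-9 at 39.2 and 44.3 against 634 and 439 (-3.68, standard error 0.36), and glyceraldehyde 3-phosphate dehydrogenase gpd-1 at 406 and 514 against 5606 and 4790 (-3.50, standard error 0.29). The starvation gene ccg-1 was at 4129 and 3996 CPM on histidine and 12950 and 13080 on leucine, with 722 and 3651 on Avicel (-1.68, standard error 0.61, adjusted p = 0.0363). Its cultures lay close together on either amino acid, and the standard error draws on the spread in all 12 libraries. The call was lost without any 1 of the 4 libraries, with a fold of -1.70 to -1.66.

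Alcohol dehydrogenase adh-1 had one of the largest decreases of the comparison, at 11.8 and 15.2 CPM on histidine and 2632 and 1643 on leucine (-7.31, standard error 0.57, adjusted p = 2.74e-06). Of 29 subunit genes of mitochondrial complex I, 19 were lower and 0 higher, with a median of -0.60 and a largest decrease for nuo10.4, at -1.76, and the number lower was 12 with library sizes alone. For nuo40 the values were 170 and 182 CPM against 386 and 374 (-1.11, standard error 0.14). Superoxide dismutase sod-1 was at 90.6 and 109 CPM on histidine and 453 and 431 on leucine (-2.14, standard error 0.18), in a list of respiratory bypass and oxidative stress genes with 2 higher and 3 lower of 11.

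Conidiation genes split. Of the 11 genes, which serve the formation of aerial hyphae and asexual spores, 3 were higher, 2 lower and 6 not called. The hydrophobin eas, which coats conidia, was at 69560 and 59390 CPM on histidine, 240 and 458 on leucine, and 3294 and 34560 on Avicel, where the 2 cultures were far apart (7.53, standard error 1.06, adjusted p = 0.00022). Of the regulators, fl was at 194 and 166 CPM against 26 and 33.3 (2.60, standard error 0.53) and acon-3 at 81.5 and 102 against 7.42 and 11.3 (3.29, standard error 0.61). The genes con-10 and con-8 went the other way. Values for con-10 were 34.4 and 25.9 CPM on histidine and 470 and 686 on leucine (-4.26, standard error 0.65), and for con-8 they were 77.1 and 48.4 against 197 and 165 (-1.52, standard error 0.30). Neither con-6, at 40.8 and 37.5 CPM against 115 and 160 (-1.81, adjusted p = 0.119), nor con-13, at 5.92 and 6.25 against 6.90 and 5.18, was called. The summed level of the 11 genes was 60090 to 70320 CPM on histidine and 1383 to 1778 on leucine, and nearly all of the former was eas. In WT eas was also higher on histidine, at 539 and 816 CPM against 0.539 and 0.806, which is below the mutant in both media. The part of conidiating cells in the other results was not tested.

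Of 14 light and clock genes 4 were higher and 3 lower. The carotenoid gene al-3, for geranylgeranyl pyrophosphate synthase, was at 949 and 857 CPM against 79.0 and 92.3 (3.40, standard error 0.51), while al-1, phytoene desaturase of the same pathway, was at 218 and 190 against 491 and 407 (-1.14, standard error 0.28). In the list of 9 mating genes 8 were tested, 3 were lower and 0 higher. The pheromone precursor gene mfa-1 was at 930 and 1266 CPM on histidine, 26810 and 26990 on leucine and 1205 and 398 on Avicel, 24.5-fold lower on histidine than on leucine (-4.62, standard error 0.48, adjusted p = 1.49e-05). The pheromone receptor gene pre-2 was at 5.40 and 7.71 CPM against 51.8 and 53.4 (-3.01, standard error 0.35). In WT both were low, mfa-1 at 2.52 to 3.12 CPM and pre-2 at 0.605 to 2.52, and there the pheromone gene of the other mating type, ccg-4, was at 412 and 313 CPM on histidine and 22690 and 20180 on leucine. That gene had at most 0.194 CPM in the mutant. Each strain's own pheromone gene was thus the one that was high on leucine.

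**Figure D4:**
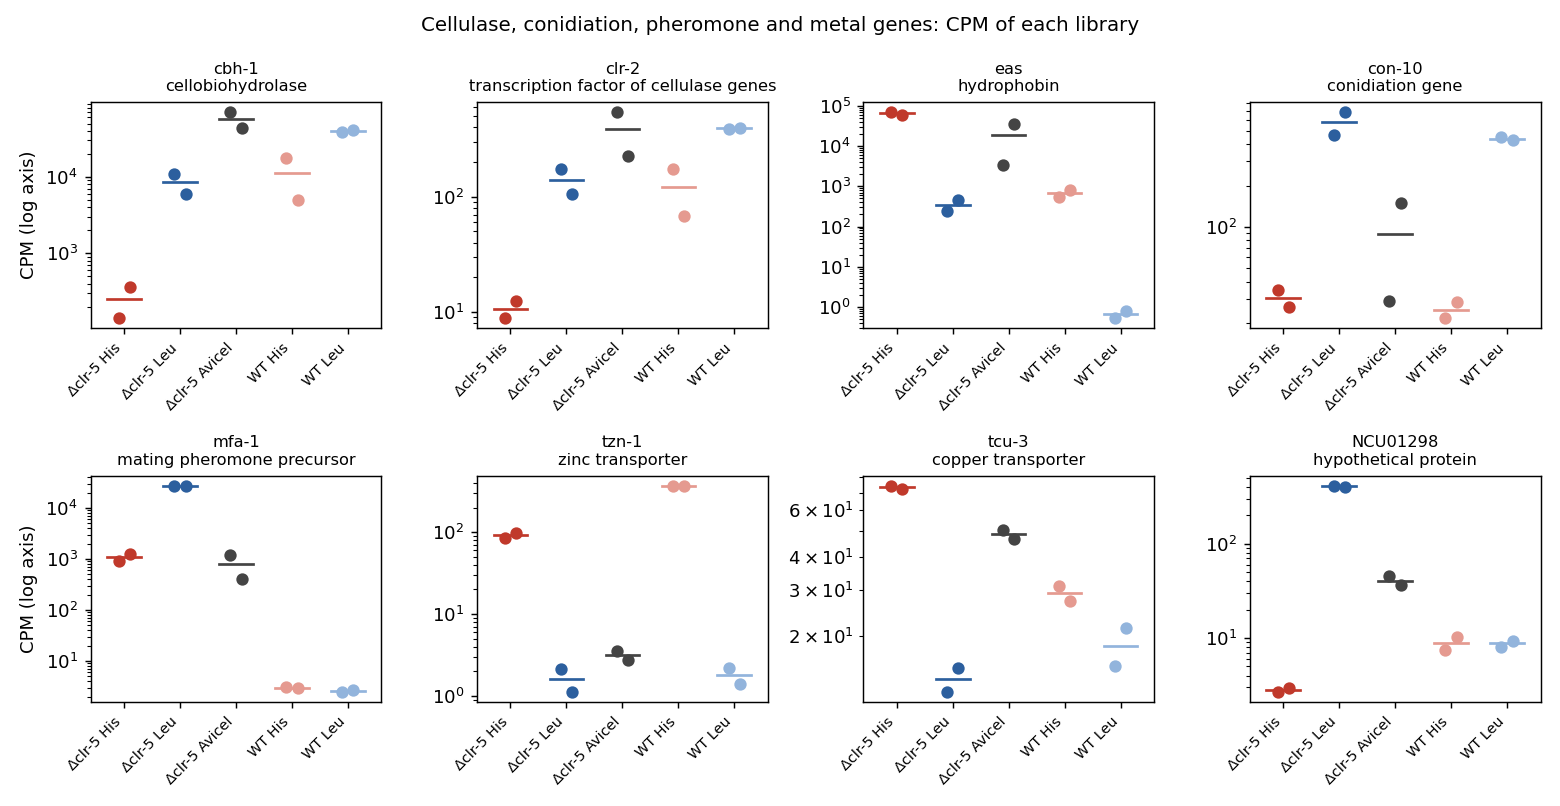
CPM of each library, on a log axis, for a cellulase, its regulator and genes of conidiation, mating and metal uptake in the same 5 groups (points, 2 cultures a group, with a line at their mean). The 2 histidine libraries of the mutant hold eas at 59390 to 69560 CPM and the 2 leucine libraries at 240 to 458, whereas con-10, mfa-1 and NCU01298 are higher on leucine.

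Genes of metal ion uptake and binding were mostly higher on histidine. Of 15 genes 9 were higher and 3 lower, at a median of 0.80, against a background of 23.6% higher. The zinc transporter gene tzn-1 was at 85.4 and 97.5 CPM on histidine, 2.11 and 1.12 on leucine and 3.49 and 2.74 on Avicel, 56.1-fold higher on histidine than on leucine (5.81, standard error 0.28, adjusted p = 1.1e-07), and its relative tzn-2 went the other way, at 27.6 and 34.4 against 120 and 97.3 (-1.81, standard error 0.22). The copper transporter genes tcu-3 and tcu-1 were at 74.3 and 72.2 CPM against 12.3 and 15.2 (2.41, standard error 0.19) and at 35.3 and 39.1 against 8.54 and 7.97 (2.17, standard error 0.23). On Avicel, however, they were at 50.5 and 46.9 and at 49.1 and 39.2 CPM, so that the leucine cultures, not the histidine cultures, stood apart. Of 2 ferric reductase genes, which reduce iron at the cell surface, NCU00876 was at 85.3 and 85.1 CPM against 8.966 and 12.02 (3.02, standard error 0.17) and NCU00829 at 50.1 and 47.3 against 10.2 and 10.8 (2.21, standard error 0.21). In WT, tcu-1 and NCU00829 showed no call (0.06 and -0.25), and the differences between strains of 2.11 and 2.45 were called, as was that of tcu-3 (1.75). The rise of tzn-1 was larger in WT (7.67, difference -1.86, a call that was lost without histidine culture 1 or leucine culture 1 of the mutant or WT leucine culture 2, -1.33 at the smallest).

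Of 26 cell wall genes 16 were higher and 1 lower, at a median of 0.64, beside the background of 23.6% higher. The anchored wall protein genes acw-4 and acw-3 were at 1627 and 1654 CPM against 344 and 317 (2.31, standard error 0.43) and at 2023 and 2218 against 439 and 451 (2.25, standard error 0.46), and the chitin synthase gene chs-4 was at 487 and 485 against 153 and 158 (1.65, standard error 0.13, adjusted p = 1.48e-06). Of 30 proteasome genes, by contrast, 5 were higher and 1 lower, 6 called of 30 against 53.0% of all genes, with rpt-2 at 295 and 328 CPM against 173 and 183 (0.81, standard error 0.12). The largest rise in that list was of rpn-4, which encodes a transcription factor and not a subunit, at 296 and 327 CPM against 118 and 48.1 (1.91, standard error 0.38). Heat shock genes numbered 1 higher and 5 lower of 12, with 3 lower without histidine culture 1: hsp70-2 was at 59.5 and 74.0 CPM against 477 and 426 (-2.76, standard error 0.28) and hsp30 at 110 and 112 against 27.8 and 22.3 (2.15, standard error 0.26). In the quinate cluster 5 of 7 genes were higher and 0 lower, 3 without histidine culture 2 or either leucine culture, and its activator gene qa-1F was at 24.4 and 27.7 CPM against 10.6 and 10.2 (1.33, standard error 0.17). Of 9 genes of phosphate and pH response 2 were higher and 1 lower, the latter being the phosphate permease gene pho-4, at 2.53 and 1.45 CPM against 14.9 and 15.4 (-2.91, standard error 0.24). The gene of ergothioneine synthesis from histidine, egt-1, was not called (0.58).

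Among the genes with the largest changes, those given without a description had no annotation in the sources used here. These describe only 1937 of the 9730 loci, those with low locus numbers. In locus order the text reached NCU02181 and was missing at gh61-1 (NCU02240) and beyond, so that a missing description does not mark an unknown gene. The largest rise was that of NCU09854, on chromosome V from 5964225 to 5966551 of the OR74A assembly (NC12), at 467 and 456 CPM on histidine and 0.188 and 0.293 on leucine (10.87, standard error 0.29, adjusted p = 2.87e-08). Its neighbour NCU09855, 2196 bases away, was at 60.5 and 73.3 CPM against 0.376 and 0.635 (7.04, standard error 0.37). A second neighbouring pair, NCU02880 and NCU02879 on chromosome I from 8823648 to 8828154, was at 109 and 110 CPM against 0.516 and 0.831 (7.33) and at 27.3 and 34.3 against 0.422 and 0.0489 (6.97). Both pairs were high on histidine in WT as well, NCU09854 at 619 and 500 CPM against 0.18 and 0.0672 and NCU02880 at 497 and 684 against 0.30 and 0.537. NCU00848, annotated as integral membrane protein TmpA, was at 3366 and 3165 CPM on histidine and 12.96 and 15.98 on leucine (7.82, standard error 0.54), NCU05477 at 472 and 546 against 4.13 and 3.13 (7.13, standard error 0.22), and NCU03011 at 536 and 425 against 4.55 and 6.16 (6.49, standard error 0.38). At the other end, NCU04169 was at 3.34 and 4.36 CPM on histidine and 1996 and 1327 on leucine (-8.75, standard error 0.72), NCU07898 at 1.59 and 2.52 against 794 and 459 (-8.26, standard error 0.93), and the dienelactone hydrolase NCU01061 at 0.815 and 1.31 against 174 and 213 (-7.51, standard error 0.43). The thiamine biosynthesis gene nmt-1 and NCU06110, with 25310 and 26740 CPM one of the most abundant transcripts on leucine, fell by 4.62 and 5.26 on the log2 scale.

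Some genes with changes of this size lay side by side. Of 8203 pairs of neighbouring genes with both members tested, 24 had both past a log2 fold change of 4 in 1 direction, 10 higher and 14 lower on histidine. These held 44 of the 239 genes past 4, which are 2.71% of all genes tested. Pairs that share a promoter or overlap at their ends were not separated, and reads of overlapping genes cannot be told apart without the strand setting of the count, which is not given in the sources used here. That limit holds for 23 of the 145 genes named in the text, among them clr-5, NCU01776, crp-15, trp-3, his-2, his-6, ilv-2, cdt-1, al-3, adh-1, pho-4, hsp30, acw-4, ad-8, con-6, rpt-2 and NCU01298.

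Most changes had the same direction in WT. There 2086 genes were higher and 2293 lower on histidine, 49.7% of those tested, and with library sizes alone 3505 and 1541. Of the genes called in the mutant 3218 were called the same way in WT and 69 the opposite way, and 1379 were called in the mutant alone. Over the 8805 genes, which are not independent replicates, the correlation of the folds in the 2 strains, which share no library, was 0.802. The fold itself differed between the strains for 430 genes higher and 576 lower, 11.4% of those tested. These counts depended on every library, with 185 to 292 higher and 243 to 434 lower when any 1 was left out, and with library sizes alone they were 266 and 989.

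**Figure D5:**
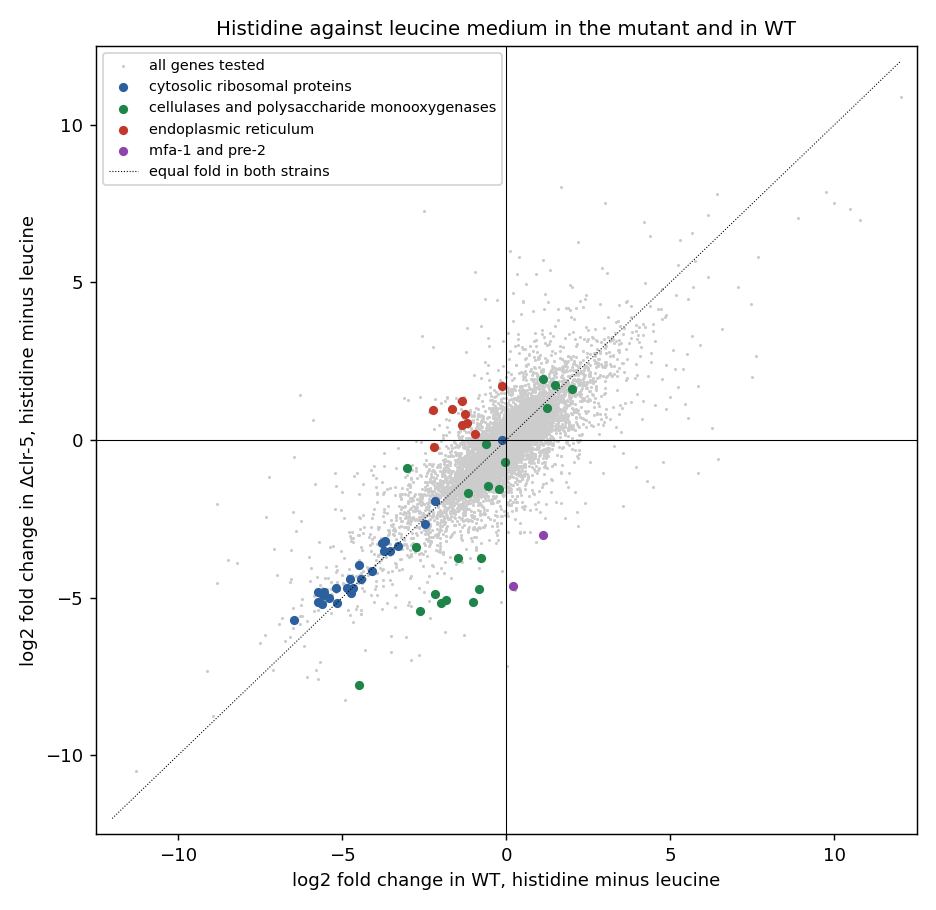
Log2 fold change between histidine and leucine medium in WT (x axis) against Δclr-5 (y axis) for 8805 genes (grey points), with 4 groups in colour and a dotted line where the folds are equal. Ribosomal protein genes lie near that line, most cellulase genes below it, the 9 endoplasmic reticulum genes above it, and mfa-1 and pre-2 lie lower in the mutant (-4.62 and -3.01) and near 0 or higher in WT.

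Several of the large differences were in genes with a larger change in the mutant than in WT. NCU01298 was at 2.70 and 2.96 CPM on histidine and 411 and 404 on leucine in the mutant, and at 7.43 and 10.37 against 8.09 and 9.41 in WT, a difference of -7.19 (standard error 0.30). On chromosome VII, the neighbours NCU05818 and NCU05819, from 3929779 to 3933831, were at 127 and 114 CPM against 2.11 and 2.20 and at 460 and 427 against 6.95 and 10.1 in the mutant, and between 0.839 and 6.42 CPM over both genes in the 4 WT libraries on these media (differences 5.41 and 4.57, the former lost without WT leucine culture 2). In WT NCU05819 was nevertheless called higher on histidine (1.13, adjusted p = 0.0326). NCU07044 was at 50.5 and 30.2 CPM on histidine and 0.469 and 0.782 on leucine in the mutant and at 0.806 to 1.28 in WT (difference 5.87, standard error 0.72). NCU07046 was at 159 and 116 CPM against 11.03 and 11.4 in the mutant and at 10.3 and 9.63 against 16.5 and 17.7 in WT, where it was called lower (-0.78, adjusted p = 0.00529, difference 4.39 with a standard error of 0.27). The clock-controlled gene ccg-13 was the reverse case, at 24.7 and 30.2 CPM on histidine and 41.9 and 46.5 on leucine in the mutant (-0.69, adjusted p = 0.0622) and at 54.3 and 108 against 2.34 and 3.56 in WT (4.79, difference -5.47). The parts of clr-5 and of mating type in these differences cannot be told apart.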

How the data were processed

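RNA from mycelium was sequenced on an Illumina platform. The authors aligned the reads to predicted transcripts of the OR74A genome and counted those that mapped to 1 gene; the submitters' processing notes name TopHat2 2.0.8b and HTSeq 0.13.5, while the study's methods give another TopHat version. The table they deposited gives the raw counts of 9730 loci in 12 libraries. The strand setting is not given in the sources used here. Locus numbers paired 9729 loci with RefSeq coordinates of the OR74A assembly (NC12).

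Counts of all 12 libraries were fitted with edgeR 4.0.16 in R 4.3.3 (TMM, filterByExpr, robust quasi-likelihood). Of the loci 8805 were tested and 925 were filtered out; the fit left 6 residual degrees of freedom, and the common biological coefficient of variation was 0.174. The contrasts were histidine minus leucine in Δclr-5, the same in WT, and the difference of these. P-values were adjusted by Benjamini-Hochberg over the genes tested, and the call was an adjusted p under 0.05 with a log2 fold change of at least 0.5 in size, the thresholds of the study. The standard error of each log2 fold change was derived from it and the F statistic, as its size over the root of F. No fold is given for ccg-4 and matA-1, whose mean count per library was at or under 3 in both groups of the mutant.

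The members, the 33 gene lists and the tests were chosen with earlier results of these data known. Members without a symbol came mostly from annotation text, which covers only loci with low numbers, so that lists drawn from it hold a part of their genes. From the lists, 3 loci without annotation in the sources were dropped after their values were seen. Named genes were taken from a rule: clr-5, the 12 largest and 12 smallest folds among genes whose log2 CPM averaged 3 or more and whose media did not overlap, the same for 8 each way of the differences between strains, up to 6 called members each way per list, genes the study names, and the 5 genes with most counts in each medium. Some of these were left out for length. Genes of DNA repair and of peroxisomes and the tricarboxylic acid cycle were chosen after values were seen, and 1 gene is not reported here.

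Alternatives were RLE and library size scaling, DESeq2 1.42.0, no filter, other thresholds, fits of the mutant libraries alone, the replicate number as a block, and omission of each library in turn. The fit was tested on simulated counts. Depth was 17539481 to 20381308 counts in the 4 mutant libraries.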

Additional observations from a re-analysis of the deposited data

Results flagged for a closer look

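For 46 genes named in the text, the histidine to leucine fold differed between Δclr-5 and WT by the edgeR test of that difference, which was called for 11.4% of all genes tested. Each value below is the log2 fold change in the mutant minus that in WT, and the strains also differ in mating type, so that the share of clr-5 in them cannot be told apart.

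Among carbohydrate-active and transport genes, the difference was -3.27 for cbh-1, -3.89 for gh61-1, -3.29 for gh61-4, -4.11 for gh61-5, -2.87 for gh10-1 and -1.78 for cdt-1. In the endoplasmic reticulum list it was 3.21 for grp78, 2.65 for NCU09223, 2.58 for NCU09485, 2.10 for NCU04127, 1.99 for NCU09265, 1.83 for both NCU00813 and NCU00169 and 1.71 for NCU08379, and it was 2.06 for NCU01856. The named plant cell wall enzymes had negative values and the named endoplasmic reticulum genes positive ones.

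Among nitrogen genes, it was -2.09 for NCU00711, -2.01 for NCU00721, -1.60 for NCU01977, -1.40 for nit-3 and -1.38 for gln-2. In biosynthesis it was 3.02 for ilv-2, 2.08 for his-6 and 1.70 for arg-2, all of which fell less in the mutant. It was 3.16 for the carboxykinase gene acu-6, 2.51 for al-3, 1.77 for pho-4, 2.45 for NCU00829, 2.11 for tcu-1, 1.75 for tcu-3 and -1.86 for tzn-1. In the deleted gene clr-5 it was -1.90, where WT rose by 1.00 and the mutant's residual reads fell. Those residual reads may belong to the locus that clr-5 overlaps.

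Mating genes differed by -4.83 for mfa-1 and -4.14 for pre-2. Among the genes with the largest differences, it was -7.19 for NCU01298, -5.47 for ccg-13, -4.17 for NCU07819, -3.12 for NCU02880 and -2.36 for NCU06110, and 5.87 for NCU07044, 5.41 for NCU05818, 4.75 for NCU05098, 4.57 for NCU05819, 4.39 for NCU07046, 4.36 for NCU05858, 4.34 for NCU09395 and 0.97 for NCU05477. In the 4 WT libraries NCU05098, NCU05819, NCU05858 and NCU09395 were at most at 5.39, 6.42, 10.6 and 17.97 CPM.

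Where 1 library was left out, the call was lost in each of 8 cases for acu-6 and al-3, in 7 for gh10-1, NCU09265, gln-2, nit-3 and NCU05477, in 6 for cbh-1 and gh61-4, in 5 for NCU00169, in 4 for NCU00813, ilv-2 and cdt-1, in 3 for tzn-1, in 2 for gh61-5 and in 1 for NCU02880 (without mutant leucine culture 2, -2.75) and NCU05818. The smallest sizes were 2.62 for acu-6, 2.36 for al-3, -1.54 for gh10-1, 1.57 for NCU09265, -1.25 for gln-2, -1.07 for nit-3, 0.78 for NCU05477, -2.08 for cbh-1, -2.04 for gh61-4, 1.55 for NCU00169, 1.63 for NCU00813, 2.71 for ilv-2, -1.55 for cdt-1, -1.33 for tzn-1, -3.05 for gh61-5 and 5.17 for NCU05818. No sign changed.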

How the results depend on the processing

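In Δclr-5, 2078 genes were higher and 2588 lower. With a log2 fold of at least 1 these were 1105 and 1785, for WT 1192 were higher, and of the listed genes 44 were higher in place of 74. With library sizes alone the median of all genes in the mutant moved from -0.04 to 0.10 and the counts were 2502 and 2257. In WT, where the median moved to 0.42, they were 3505 and 1541, and for the difference between strains 266 and 989. DESeq2 gave 2190 and 2603 genes in the mutant and 601 and 723 for the difference, and the 4 mutant libraries alone gave 2354 and 2654. Leaving out 1 library, which leaves a lone culture assumed to vary like the others, gave 1710 to 1798 higher and 2153 to 2325 lower in the mutant, and 185 to 292 and 243 to 434 for the difference.

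Same-numbered histidine and leucine cultures did not deviate together (correlation -0.03), so that the numbers do not pair them. With a replicate block 2074 genes were higher and 2577 lower over all libraries, and 2360 and 2633 in the 4 mutant libraries, where cbh-1, gh6-2, gh61-1, gh61-5, gh10-1 and rpn-4 were not called.

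Of the folds of the genes named, 4 changed sign, none of them called: NCU09265 was 0.0186 without histidine culture 2, cdt-2 was -0.0006 with no filter, and con-13 was -0.0167 with the block over all libraries. Leaving out 1 library gave -0.4955 to 0.0186 for NCU09265, -0.1626 to 0.151 for cdt-2, -0.184 to 0.2298 for con-13 and -0.0736 to 0.1556 for cpc-1. Depth limits genes such as NCU02879, with 1 count in leucine culture 2.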

Other observations

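DNA repair genes, a group chosen after the values were seen, were mostly higher on histidine. Of 26 genes with the symbols mus, uvs or upr, which were named for mutants sensitive to mutagens or ultraviolet light, 17 were called higher and 1 lower in Δclr-5, at a median log2 fold change of 1.55 against -0.04 over all genes tested. In WT 18 were higher and 3 lower, at a median of 1.86. Several genes of homologous recombination were among them. The counterpart of RAD54 of yeast, mus-25, was at 94.3 and 98.6 CPM on histidine, 10.1 and 9.73 on leucine and 14.6 and 14.2 on Avicel (3.28, standard error 0.19, adjusted p = 2.53e-07), the RAD52 counterpart mus-11 at 115 and 104 against 12.3 and 10.8 (3.24, standard error 0.19), and mus-23 and uvs-6, counterparts of MRE11 and RAD50, at 134 and 140 against 14.4 and 15.7 (3.19) and at 238 and 246 against 20.4 and 25.9 (3.38). In each of these genes the histidine libraries stood above both other media of the mutant.

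Genes of other repair routes rose as well. The Ku subunit gene mus-51, of end joining, was at 183 and 183 CPM against 20.6 and 22.8 (3.07, standard error 0.14). The translesion polymerase genes upr-1 and mus-42, annotated as REV3 and REV1, were at 80.6 and 83.2 against 9.81 and 8.51 (3.16, standard error 0.20) and at 51.2 and 57.3 against 2.02 and 3.03 (4.42, standard error 0.30). The post-replication repair gene uvs-2 was at 52.8 and 50.3 CPM against 6.53 and 7.92 (2.83), and the checkpoint kinase gene mus-9 at 239 and 252 against 53.2 and 51.2 (2.23). The 1 gene that fell was mus-18, an endonuclease gene of ultraviolet damage repair, at 11.36 and 10.42 CPM against 26.4 and 27.6 (-1.31, standard error 0.28, adjusted p = 0.00204). The summed level of the 26 genes was 2188 and 2237 CPM on histidine, 792 and 788 on leucine and 765 and 737 on Avicel.

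Of 16 genes with the symbol tca, of the tricarboxylic acid cycle, 12 were lower and 0 higher (median -1.25), and of 20 peroxin genes, which build peroxisomes, 12 were higher and 1 lower (median 0.52). Both groups were also chosen after values were seen.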
